A study of Mus musculus with 18 samples.

Results

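The 13 protein-coding genes of the mouse mitochondrial genome were followed in brain, kidney and gastrocnemius, the large calf muscle, of old mice. The genes were taken as every row of the deposited table whose name starts with mt-, which gave 13 of 34745 rows. Polyadenylated RNA had been sequenced in 18 libraries from wild-type male C57BL/6 mice, with 3 libraries per group and tissue. Mice of the SeMSNs group received SeMSNs, which the series title calls a nano-selenium supplement, by gavage, and old control mice received saline by gavage. All mice ate a normal diet, were 18 months old at the start and gave their tissues at 23 months. Labels differ on the dose: the series design gives 5 mg/kg from a 1 mg/mL preparation 2 times every 2 days, and the treatment protocol gives 10 mg/kg every day. Each group had 6 to 10 mice, and the labels tie no library to a mouse, so p-values measure the spread between libraries. The series title names a pathway of Sik1 and calcium in ageing organs; mitochondrial transcripts are not its stated subject.

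The mitochondrial genome is a small circle that encodes core subunits of the respiratory chain and of ATP synthase, while all other subunits come from nuclear genes. Each of its strands is copied as a long precursor RNA by the polymerase Polrmt with the factor Tfam, and the messenger, ribosomal and transfer RNAs are then cut out, mostly at the transfer RNAs that lie between them. Because the genes of a strand start out on a common precursor, differences in level between them can arise where transcripts are cut, tailed, stabilised or degraded. Kidney tubules, skeletal muscle and neurons all depend on mitochondrial ATP.

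Complex I, which takes electrons from NADH, holds 7 of the 13 gene products (mt-Nd1, mt-Nd2, mt-Nd3, mt-Nd4, mt-Nd4l, mt-Nd5 and mt-Nd6). Complex III holds 1, cytochrome b (mt-Cytb). Complex IV, cytochrome c oxidase, holds 3 (mt-Co1, mt-Co2 and mt-Co3), and ATP synthase holds 2 (mt-Atp6 and mt-Atp8). The table's positions for all 13 were those of GRCm38, from mt-Nd1 at chrMT:2751-3707 to mt-Cytb at chrMT:14145-15288, and the genes have no introns. The gene on the light strand is mt-Nd6 (chrMT:13552-14070, minus strand), and the other 12 are read from the plus strand of the annotation.

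The ends of the coding sequences are shown because some of them rely on the added tail. Whether these ends bear on capture in a library of polyadenylated RNA was not tested. In 3 genes (mt-Co3, mt-Nd4 and mt-Cytb) the annotated sequence ends in a lone T, so the stop codon is completed only by the added tail. The last 30 bases of these genes, from the GRCm38 transcripts, are given here with mt-Co1 for contrast, with its complete stop codon in capitals and the lone T in capitals in the others.
mt-Co1: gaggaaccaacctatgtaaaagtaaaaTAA
mt-Co3: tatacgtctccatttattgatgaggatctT
mt-Nd4: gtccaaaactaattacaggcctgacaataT
mt-Cytb: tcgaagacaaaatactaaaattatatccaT
These ends lie at chrMT:6843-6872, chrMT:9361-9390, chrMT:11515-11544 and chrMT:15259-15288, all on the plus strand.

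Neighbouring genes also share bases. The end of mt-Atp8 and the start of mt-Atp6 overlap by 43 bases, and both proteins are made from a common messenger RNA. The overlap is shown at chrMT:7912-7984 with 15 bases on each side, with the start codon of mt-Atp6 and the stop codon of mt-Atp8 in capitals.
mt-Atp8 and mt-Atp6: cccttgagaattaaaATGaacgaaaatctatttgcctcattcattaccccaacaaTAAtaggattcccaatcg
A second shared messenger carries mt-Nd4l and mt-Nd4, which overlap by 7 bases. The ends of mt-Nd5 (chrMT:13536-13565) and mt-Nd6 (chrMT:13552-13581, minus strand) face each other from opposite strands and overlap by 14 bases, in capitals here.
mt-Nd5: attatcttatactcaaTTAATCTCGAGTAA
mt-Nd6: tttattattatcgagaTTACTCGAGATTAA
Whether the counting used strand is not given in the sources used here, so reads of mt-Nd6 cannot be told apart from antisense RNA copied from the other strand.

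Total counts per library lay between 17357799 and 22146406. The tissue labels were checked against marker genes, as sums of CPM (counts scaled to a common library size). Neuronal markers reached 3894 to 4690 CPM in brain and at most 12.1 CPM elsewhere, proximal tubule markers 11401 to 18760 CPM in kidney, and fast-fibre markers 52972 to 86049 CPM in gastrocnemius. Several libraries stood apart within their tissue. Brain SeMSNs libraries 1 and 2 held 3305 and 2998 CPM of 8 cerebellar markers, against 52.5 CPM in SeMSNs 3 and 79.2 to 123 CPM in the controls. Hypothalamic markers were at 174, 18.5 and 190 CPM in brain controls 1, 2 and 3 and at 0.950 to 2.04 CPM in SeMSNs brain, where Hcrt, Avp and Oxt were at 0. Gastrocnemius control 1 held 8021 CPM of slow-fibre markers, against 526 to 3152 CPM in the other 5 gastrocnemius libraries. Other markers differed in brain too: striatal markers were at 432 to 1568 CPM in controls and 221 to 427 CPM in SeMSNs, astrocyte markers at 1063 to 1150 and 1253 to 1576 CPM, and choroid plexus markers at 535 to 691 CPM in controls and 893, 177 and 40.3 CPM in SeMSNs 1, 2 and 3. Fast-fibre markers were at 565 CPM in brain control 2 and at 23.5 to 343 CPM in the other brain libraries. In gastrocnemius they were at 52972 to 63714 CPM in controls and at 63733 to 86049 CPM in SeMSNs. The part of these markers in the results was not tested.

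The 13 genes took about 1 count in 4 in kidney and gastrocnemius and about 1 in 8 in brain. In control brain they held 12.6%, 13.1% and 11.9% of all counts in libraries 1, 2 and 3, and in SeMSNs brain 10.98%, 9.95% and 12.2%. In control kidney the shares were 28.1%, 25.8% and 28.9%, and in SeMSNs kidney 24.5%, 28.0% and 26.4%. In control gastrocnemius they were 25.8%, 21.9% and 24.9%, and in SeMSNs gastrocnemius 26.9%, 22.1% and 19.7%. Every brain library lay below every kidney and gastrocnemius library, while kidney and gastrocnemius overlapped, and within each tissue the treatment groups overlapped. Over 6 libraries the share was 11.8% ± 1.16 (SD) in brain, 26.9% ± 1.67 in kidney and 23.5% ± 2.76 in gastrocnemius.

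**Figure D1:**
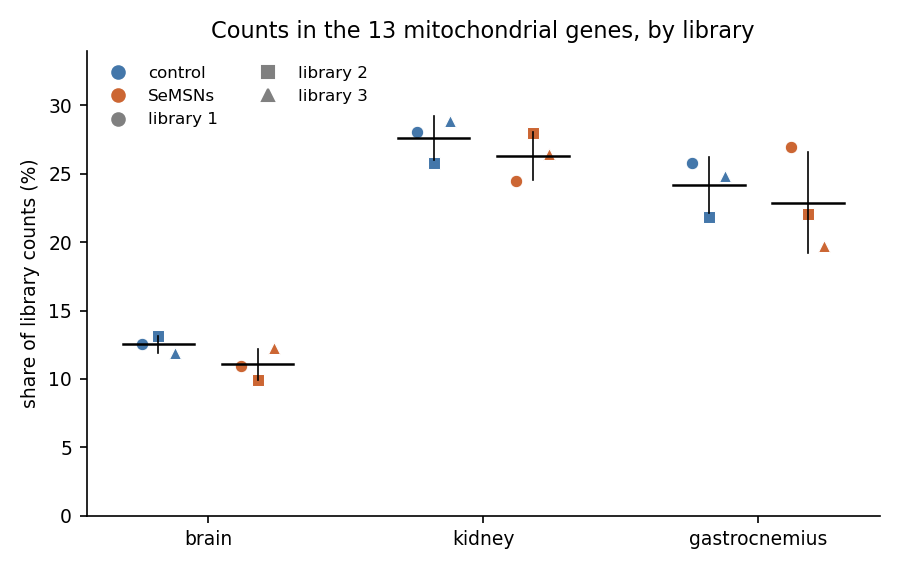
Share of all gene counts taken by the 13 mitochondrial genes, in percent, for each of the 18 libraries by tissue and treatment. Points are libraries, horizontal black lines are means and vertical lines are SDs of 3 libraries; the brain libraries, at 9.95% to 13.1%, sit below all others, at 19.7% to 28.9%.

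A share depends on what the other genes take. The 10 most abundant nuclear genes of each tissue took 2.34% to 2.83% of counts in brain, 6.24% to 7.66% in kidney and 14.6% to 20.5% in gastrocnemius. In gastrocnemius the treatment groups were apart, at 14.6% to 16.2% in controls and 17.6% to 20.5% in SeMSNs. With those 10 left out of the total, the gastrocnemius means were 28.6% in controls and 28.1% in SeMSNs, beside 29.6% and 28.3% in kidney. In bulk tissue, fewer cells rich in mitochondria and less mitochondrial RNA per cell cannot be told apart.

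Levels between genes were compared per length, as the FPKM values that the authors deposited (fragment counts divided by gene length and library total). In all 3 tissues mt-Atp8, mt-Co1 and mt-Co2 had the highest means and mt-Nd6 stood lowest by a wide margin. Only polyadenylated RNA was sequenced, so tailing and amount of a transcript cannot be told apart in these levels, mt-Nd6 included. The gene mt-Atp8 has only 204 bases, 43 of them shared with mt-Atp6, and some other genes share reads with identical nuclear copies, described below. How far either bears on the order was not tested. Among complex I genes, mt-Nd1 had the highest mean and mt-Nd6 the lowest in each tissue, with mt-Nd4l, mt-Nd4 and mt-Nd2 between them in that order.

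For mt-Atp8, a small membrane subunit of ATP synthase, the lowest, median and highest FPKM were 19587, 25066 and 28600 in brain. Kidney had 49216, 52780 and 67315 and gastrocnemius 36007, 40680 and 57314. For mt-Co1, the catalytic subunit of cytochrome c oxidase, brain had 19118, 21947 and 23802, kidney 44722, 46091 and 49651 and gastrocnemius 39337, 47193 and 53332. For both genes the brain range lay below the other 2 ranges, which overlapped. For mt-Nd6, a membrane subunit of complex I, brain had 140, 168 and 184 FPKM, kidney 254, 269 and 337 and gastrocnemius 147, 192 and 277. The mean of the highest gene was 149 times that of mt-Nd6 in brain, 198 times in kidney and 240.1 times in gastrocnemius. Among the 12 genes of the other strand the highest mean was 7.55, 7.27 and 7.18 times the lowest.

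The order of mean FPKM in brain was mt-Atp8 (24425 ± 3172, SD, n = 6), mt-Co1 (21673), mt-Co2 (18362), mt-Atp6 (17885), mt-Co3 (13366), mt-Cytb (10643), mt-Nd1 (8857), mt-Nd4l (7394), mt-Nd4 (6349), mt-Nd2 (5027), mt-Nd5 (3445), mt-Nd3 (3237) and mt-Nd6 (164). Neighbours in this order overlapped in their ranges over libraries, except at the steps below mt-Nd2 and below mt-Nd3. In kidney the order was mt-Atp8 (54908 ± 7030), mt-Co1 (46822), mt-Co2 (45338), mt-Co3 (38332), mt-Cytb (35027), mt-Nd1 (19801), mt-Nd4l (18295), mt-Nd4 (16315), mt-Nd2 (13996), mt-Nd3 (9719), mt-Nd5 (8035), mt-Atp6 (7555) and mt-Nd6 (277). Here the steps without overlap lay below mt-Cytb, below mt-Nd2 and below mt-Atp6. In gastrocnemius the order was mt-Co1 (46902 ± 5106), mt-Atp8 (44713), mt-Co2 (33734), mt-Co3 (32502), mt-Cytb (24593), mt-Nd1 (18874), mt-Nd4l (15542), mt-Nd4 (13854), mt-Nd2 (12644), mt-Atp6 (11424), mt-Nd3 (6655), mt-Nd5 (6533) and mt-Nd6 (195), and the step above mt-Nd6 was the one without overlap. The gene that changed place most was mt-Atp6, at rank 4 in brain and rank 12 in kidney, and its gastrocnemius mean had an SD of 12648.

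**Figure D2:**
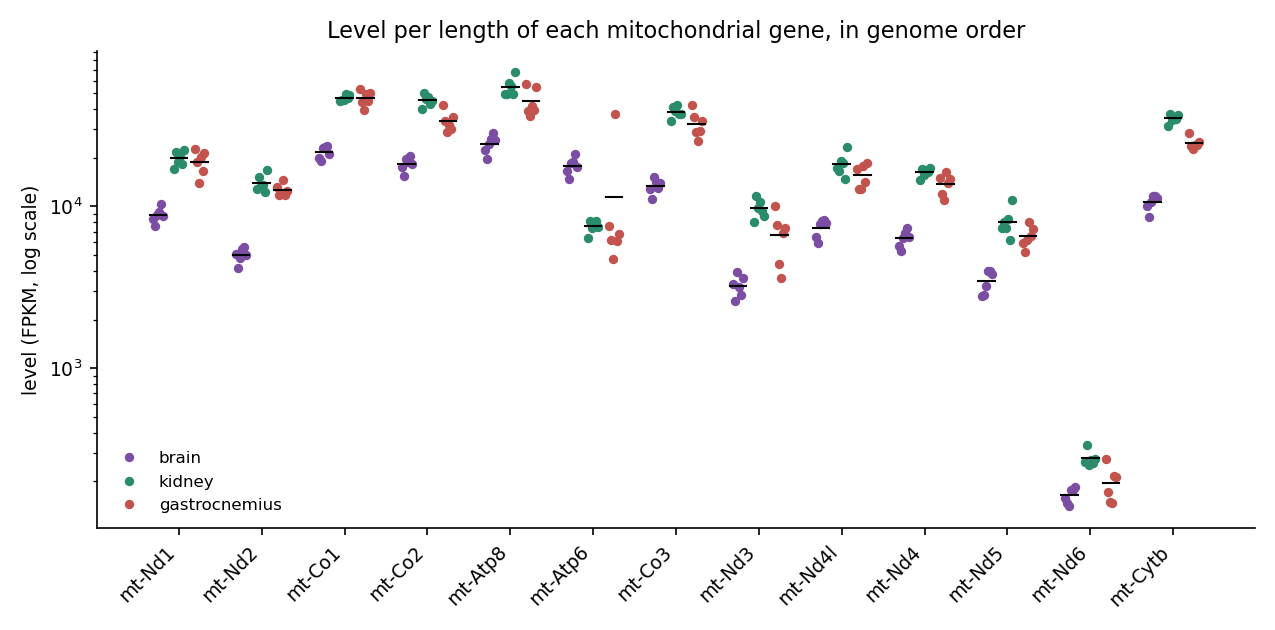
Deposited FPKM of the 13 genes, in genome order from mt-Nd1 to mt-Cytb, on a log axis, with each of the 18 libraries as a point coloured by tissue. Most genes run in parallel with brain lowest, mt-Nd6 lies near 140 to 337 in all libraries, and mt-Atp6 breaks the parallel.

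Fitted across all genes with edgeR's quasi-likelihood test and trimmed-mean (TMM) scaling, 12 of 13 genes were lower in brain than in kidney, in a comparison where 38% of all tested genes were called lower and 79.6% called in either direction at an adjusted p of 0.05. The median log2 difference of the 13 genes was −1.82, against 0.08 for all genes. The lowest was mt-Cytb, the core of complex III, at −2.24 ± 0.22 (SE). In these 12 genes the 6 brain libraries lay below the 6 kidney libraries without overlap, as did 31% of all genes. The exception was mt-Atp6, the proton-channel subunit of ATP synthase, at 0.72 ± 0.38 with an adjusted p of 0.0941 in edgeR. Its brain libraries nevertheless lay above all kidney libraries without overlap, as did 33.7% of all genes. Without gastrocnemius control 1, which enters the spread of the fit of all 18 libraries, the same difference had an adjusted p of 0.00136 in edgeR. It was 1.24 with library totals only (adjusted p 0.00395 in edgeR) and with limma on FPKM. With the counts of its nuclear copy added it was 0.11, still above the median of −1.82 that the 13 genes had without that addition.

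Against gastrocnemius, brain was again lower in 12 of 13 genes, where 34.6% of all genes were called lower and 79.1% in either direction. The median was −2.20 and that of all genes 0.25. The largest difference was that of mt-Nd2, a complex I subunit, at −2.47 ± 0.20. The call of mt-Nd6 (−1.38 with TMM) was lost with library totals only (−0.26, adjusted p 0.108 in edgeR) and with limma on FPKM (−0.22). TMM-scaled ranges of these 12 genes did not overlap, as for 25.7% of all genes, although the FPKM ranges of mt-Nd6 given above did. For mt-Atp6 the difference was −0.36 ± 0.38, with an adjusted p of 0.401 in edgeR, and it became 0.41 without gastrocnemius control 1. The 2 tissue differences share the brain libraries, so they are not independent.

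Kidney and gastrocnemius differed less. Lower in kidney were 4 of 13 genes, with 32.5% of all genes called lower and 70.8% in either direction: mt-Atp6 (−1.08, adjusted p 0.0194 in edgeR), mt-Co1 (−0.62, 0.0363), mt-Nd1 (−0.54, 0.0301) and mt-Nd2 (−0.46, 0.0397). The median of the 13 was −0.36 and that of all genes 0.10. TMM-scaled ranges did not overlap for 2 genes, mt-Co1 and mt-Co3, lower in kidney, as for 23.4% of all genes. For mt-Co3 they were barely apart, at most 32516 CPM in kidney and at least 32553 CPM in gastrocnemius. The FPKM ranges of both genes overlapped, and the mean FPKM of mt-Co3 was higher in kidney (38332 against 32502). These calls depend on the scaling and on which libraries enter. Scaled by library totals only, 4 genes were called higher in kidney. Without gastrocnemius control 1 no gene was called, without brain SeMSNs 1 the call of mt-Nd2 was lost, and mt-Atp6 alone was called when kidney control 1, kidney control 2, kidney SeMSNs 1, kidney SeMSNs 3 or gastrocnemius SeMSNs 1 was left out.

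TMM scaling and library totals gave different levels. Scaled by totals only, the medians of the 13 genes were −1.30 for brain against kidney, −1.07 for brain against gastrocnemius and 0.24 for kidney against gastrocnemius, while the medians of all genes were 0.59, 1.36 and 0.70. Relative to the median of all genes, the 13 genes stood at −1.90, −2.45 and −0.47 with TMM and at −1.90, −2.43 and −0.45 with totals only. A change of scaling moves all genes of a library together, so the 2 sets of relative values are alike by construction.

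Ratios between genes of the same library do not depend on scaling between libraries. Of 36 tests (12 ratios in 3 pairs of tissues), 22 passed an exact two-sided permutation test with tissue labels exchanged within each treatment and Benjamini-Hochberg adjustment over the 36. With 400 arrangements the smallest p was 0.005. Ratios are given per length, from the FPKM values.

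Along the heavy-strand transcript, the ratio of mt-Nd1, near its start, to mt-Cytb, at its end, was 0.833 ± 0.040 (SD, n = 6) in brain, 0.564 ± 0.029 in kidney and 0.764 ± 0.093 in gastrocnemius. Kidney ratios ran from 0.526 to 0.605 and lay below all brain and gastrocnemius ratios. The log2 difference between brain and kidney was 0.56 (exact permutation p = 0.005, adjusted 0.012) and between kidney and gastrocnemius −0.43 (adjusted exact permutation p = 0.012). Between brain and gastrocnemius it was 0.13 and did not pass (exact permutation p = 0.165). In polyadenylated RNA the light-strand gene mt-Nd6 stood at 0.048 of mt-Nd5 in brain, 0.035 in kidney and 0.031 in gastrocnemius. Brain was above kidney by 0.46 on the log2 scale (adjusted exact permutation p = 0.012) and above gastrocnemius by 0.71 (adjusted exact permutation p = 0.020).

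The 3 oxidase subunits kept different proportions in each tissue. The ratio of mt-Co2, which holds the copper site that receives electrons from cytochrome c, to mt-Co1 was 0.719 in gastrocnemius, 0.847 in brain and 0.969 in kidney, and all 3 pairs of tissues differed (log2 −0.19 for brain against kidney, 0.24 for brain against gastrocnemius and 0.43 for kidney against gastrocnemius, each with an adjusted exact permutation p of 0.012). The ratio of mt-Co3, the third core subunit, to mt-Co1 was 0.617 in brain, 0.819 in kidney and 0.695 in gastrocnemius. Kidney was above brain (log2 difference of brain and kidney −0.41, adjusted exact permutation p = 0.012) and above gastrocnemius (0.25, adjusted exact permutation p = 0.0343). The ratio of mt-Co1 to mt-Nd2 was 4.32, 3.38 and 3.71 in brain, kidney and gastrocnemius. By contrast mt-Nd4 and mt-Nd4l, read from a shared messenger, stood at 0.861, 0.908 and 0.896, and no pair of tissues passed (exact permutation p = 0.525, 0.330 and 0.925).

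The other shared messenger behaved differently. Per length, mt-Atp6 stood at 0.734 ± 0.031 of mt-Atp8 in brain and at 0.139 ± 0.021 in kidney, a log2 difference of 2.41 (adjusted exact permutation p = 0.012). In gastrocnemius the mean was 0.265 with an SD of 0.306, because 1 library stood with brain. The 6 brain libraries and gastrocnemius control 1 lay between 0.678 and 0.890, and the other 11 libraries between 0.111 and 0.164, with none between. Set against mt-Co3, the next gene downstream, the same 7 libraries held 1.22 to 1.62 and the same 11 held 0.163 to 0.219. In FPKM, mt-Atp6 was at 14825 to 37170 in the 7 and at 4718 to 8173 in the 11, although the 7 include the libraries with the lowest shares of mitochondrial counts. These 7 and 11 libraries were set apart by this ratio itself, so their difference is a description and has no test.

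**Figure D3:**
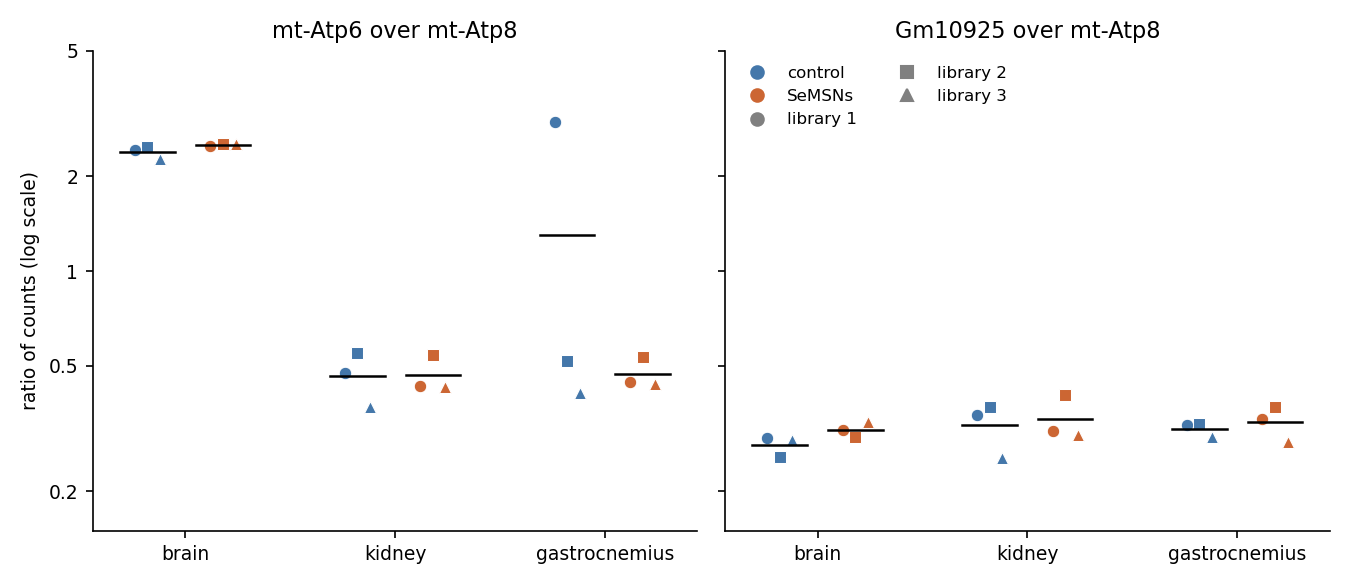
Ratio of counts of mt-Atp6 to mt-Atp8 (left) and of the nuclear copy Gm10925 to mt-Atp8 (right) on log axes, with each library as a point by tissue. On the left the 6 brain libraries and gastrocnemius control 1 stand at 2.26 to 2.97 and the other 11 at 0.369 to 0.548; on the right all 18 lie between 0.255 and 0.405.

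The row Gm10925 did not split in this way. It is an unprocessed pseudogene at chr1:24613974-24614651 (minus strand), a copy of mt-Atp6 inserted in the nuclear genome, and its 678 bases have 0 mismatches to mt-Atp6. The first 60 bases of both are shown because no read within them can be assigned by sequence; capitals mark the part that mt-Atp8 also covers.
mt-Atp6: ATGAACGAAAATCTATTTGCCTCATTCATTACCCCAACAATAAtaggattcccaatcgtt
Gm10925: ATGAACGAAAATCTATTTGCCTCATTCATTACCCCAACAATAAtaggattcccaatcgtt
They lie at chrMT:7927-7986 and chr1:24614592-24614651 (minus strand). Counts of Gm10925 were 0.258 to 0.331 of those of mt-Atp8 in the 7 libraries and 0.255 to 0.405 in the 11. As a percentage of the counts of mt-Atp6 and Gm10925 together, Gm10925 took 9.45% to 11.5% in the 7 and 38.7% to 43.4% in the 11.

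A wider search found 269 genes higher in all 7 libraries than in all 11 and 252 genes lower. Of these, 0 were at least 4-fold higher in every such pair and 1 was at least 4-fold lower: Gm26712 (chr6:57689433-57689649), named here after its values were seen, with 1 to 2 counts in the 7 and 139 to 279 in the 11. Gastrocnemius control 1 also stood at least 4-fold above the other 5 gastrocnemius libraries in Myl6b and at least 4-fold below them in Pdk4, Tmem127 and Igfn1. Its slow-fibre markers are given above, and its mt-Nd3, at 3623 FPKM, was the lowest of the tissue. What sets these libraries apart was not tested.

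Copies of other mitochondrial genes had counts as well. The table held 11 nuclear pseudogenes that share runs of 31 bases with the 13 genes, and they took 0.600% ± 0.066 (SD, n = 6) of counts in brain, 1.64% ± 0.147 in kidney and 1.30% ± 0.242 in gastrocnemius. A stretch of chromosome 1 next to Gm10925 holds identical copies of mt-Nd4 (Gm28439), mt-Co3 (Gm28437), mt-Co2 (Gm28661) and mt-Nd4l (Gm10222), each without a mismatch over its length. The median share of the copy in the counts of copy and gene was 5.86% for Gm28439, 10.8% for Gm28437, 9.82% for Gm28661 and 12.1% for Gm10222, with a range of 9.84% to 11.4% over the libraries for Gm28437. Also on chromosome 1, Gm28438 differs from mt-Nd3 by 1 mismatch and took 9.52%, and Gm29216, 98.8% identical to the end of mt-Co1, took 2.63%. These shares are uncertain as levels of the copies, because identical reads could be assigned to either row.

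The copies on chromosomes 2 and 13 took smaller shares than those on chromosome 1. Gm13340 on chromosome 2 (chr2:22588103-22589647, minus strand) matches mt-Co1 over 1545 bases with 37 mismatches and took a median of 0.733% of the counts of both. The 90 bases shown are those with most mismatches, 5, in capitals, from chrMT:5772-5861 and chr2:22589114-22589203 (minus strand).
mt-Co1: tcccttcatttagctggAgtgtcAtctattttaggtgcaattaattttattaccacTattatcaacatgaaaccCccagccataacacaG
Gm13340: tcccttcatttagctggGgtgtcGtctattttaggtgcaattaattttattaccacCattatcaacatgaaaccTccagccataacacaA
Gm13339 (96.7% identical to part of mt-Nd2) took 0.118%, Gm4076 (90.4% identical to part of mt-Nd5) 0.0605% and Gm13341, a copy of mt-Co2, 0.00227%. Identities were counted without gaps and can be too low where a copy holds insertions or deletions. With the counts of copies added to their genes, the counts of mitochondrial genes called in each comparison stayed within 1.5 times those given here.

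SeMSNs were compared with old control within each tissue. In edgeR 0 of the 13 genes passed in any tissue. Of all genes, edgeR called 0.0228% in gastrocnemius, 0.00664% in kidney and 0.00622% in brain. At an unadjusted p under 0.05, edgeR counted 2 in brain (15.4% of all genes), 0 in kidney (6.11%) and 0 in gastrocnemius (13%). DESeq2 called 1 gene in brain, mt-Nd5 (adjusted p = 0.0369, with 4.14% of all genes called), 0 in kidney (0.179% of all genes) and 0 in gastrocnemius (1.24%).

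In brain 12 of 13 fitted values were below 0, where 48.8% of all genes were, with a median log2 difference of −0.24 against 0.01 for all genes. The genes of a strand start on a common precursor, so such counts, here and below, are not counts of independent observations. The largest was that of mt-Nd5, a proton-pumping subunit of complex I. Its TMM-scaled level was 7345, 7643 and 6870 CPM in controls and 4953, 5087 and 5974 CPM in SeMSNs. All 3 SeMSNs libraries lay below all 3 controls, a log2 difference of −0.45 ± 0.13 (SE; adjusted p = 0.260 in edgeR). Its neighbour on the other strand, mt-Nd6, was at 93.3, 96.2 and 94.1 CPM in controls and at 79.5, 75.8 and 73.8 CPM in SeMSNs. Again the groups did not overlap, and the difference was −0.31 ± 0.09 (adjusted p = 0.263 in edgeR).

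Ranges in brain were also apart for mt-Atp8, mt-Cytb and mt-Nd2. Levels of mt-Atp8 were 5377, 6104 and 5196 CPM in controls and 4379, 3941 and 5024 CPM in SeMSNs (−0.32 ± 0.15, adjusted p 0.349 in edgeR). Levels of mt-Cytb were 13449, 13974 and 12655 CPM in controls and 11098, 9737 and 12391 CPM in SeMSNs, a difference of −0.27 ± 0.14. In SeMSNs 3 both genes came close to the lowest control. For mt-Nd2 the highest SeMSNs library was at 5105 CPM and the lowest control at 5144 CPM. Groups were thus apart, with SeMSNs lower, in 5 of 13 genes, against 10.9% of all genes. For mt-Co1 they were not: controls were at 36307, 38472 and 32040 CPM and SeMSNs at 29900, 29131 and 35787 CPM (−0.17 ± 0.16). The value nearest 0 was that of mt-Nd3, a small complex I subunit.

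Most brain differences were smaller without the libraries rich in cerebellar markers. Without SeMSNs libraries 1 and 2 both, 9 of 13 values were below 0 and the median was −0.08. There mt-Nd6 was at −0.34 and mt-Nd5 at −0.27. These values set the lone SeMSNs library 3 against the controls, so the spread comes from the controls only, and 0 calls in edgeR, of the 13 or of all genes, say little. Without SeMSNs 3, which was low in those markers (52.5 CPM), all 13 values were below 0. In that fit, which called 17.2% of all genes, 2 passed in edgeR, mt-Nd5 (−0.54, adjusted p = 0.0256) and mt-Nd4l (−0.44, adjusted p = 0.0370). Brain region and treatment cannot be told apart in those 2 libraries, nor in SeMSNs 3. Its hypothalamic, striatal and choroid plexus markers (2.04, 221 and 40.3 CPM) also lay below those of every control.

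**Figure D4:**
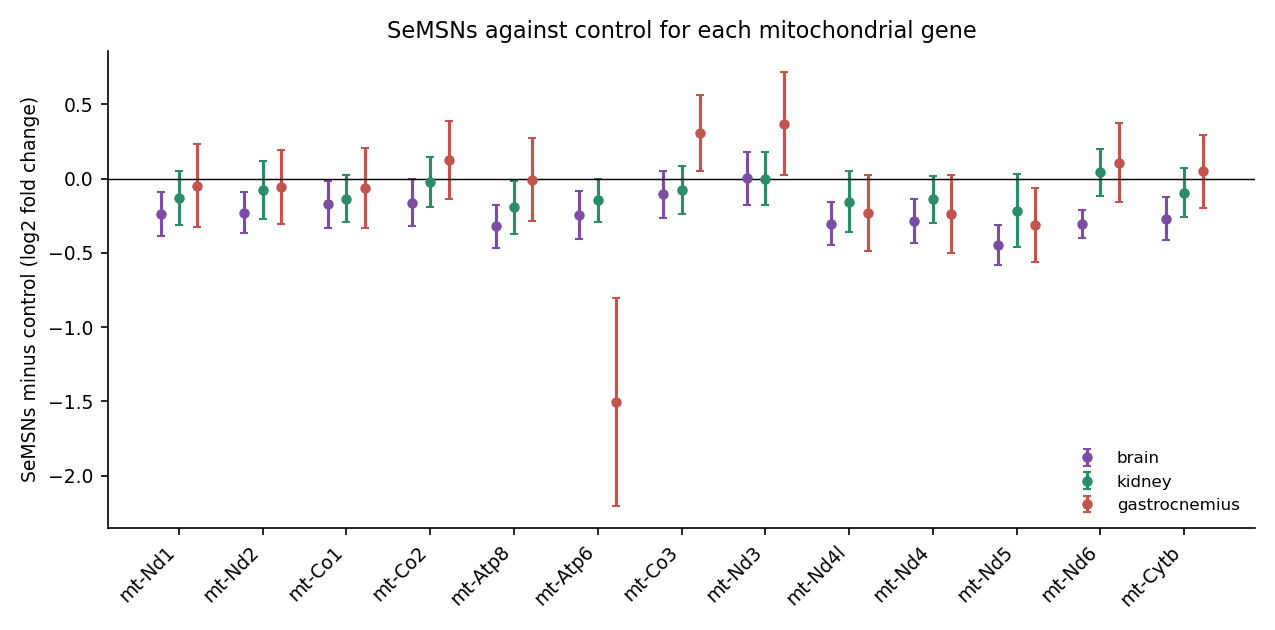
Log2 difference between SeMSNs and old control for the 13 genes in genome order, in brain, kidney and gastrocnemius, with bars of 1 SE from edgeR. Brain points lie between −0.45 and 0.00, kidney points between −0.21 and 0.04, and the gastrocnemius point of mt-Atp6, at −1.50, has the widest bar.

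In kidney 11 of 13 fitted values were below 0 (49.6% of all genes), between −0.21 and 0.04 with a median of −0.13. The lowest was mt-Nd5, at 15182, 10926 and 21536 CPM in controls and 12905, 15101 and 13043 CPM in SeMSNs (−0.21 ± 0.24). The 3 SeMSNs libraries lay within the range of the controls. The highest was mt-Nd6, at 142, 130.5 and 155 CPM in controls and 132, 180.0 and 128 CPM in SeMSNs (0.04 ± 0.16). No gene's groups were apart, and 13.5% of all genes had groups apart in either direction.

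In gastrocnemius 8 of 13 were below 0 (51.1% of all genes), with a median of −0.05. The outlying value was again mt-Atp6: 27968, 3965 and 4273 CPM in controls and 5463, 4013 and 3288 CPM in SeMSNs. The difference of −1.50 ± 0.70 (adjusted p = 0.404 in edgeR) came from control 1, and without that library it was 0.05 (adjusted p 0.949 in edgeR). The other 12 genes lay between −0.31 (mt-Nd5) and 0.37 (mt-Nd3). Levels of mt-Co3 were 21839, 21798 and 24726 CPM in controls and 34820, 26620 and 23191 CPM in SeMSNs (0.31 ± 0.26), with SeMSNs 3 inside the control range. Levels of mt-Nd3 were 1393, 2268 and 2377 CPM in controls and 3707, 2527 and 1562 CPM in SeMSNs, with wide overlap. No gene's groups were apart, against 18.5% of all genes.

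Averaged over the 3 tissues in a fit of all libraries, 0 of 13 genes passed in edgeR (0.0889% of all genes), 0 had an unadjusted p under 0.05 (17.3% of all genes) and 0 passed in DESeq2 (5.07% of all genes). The median was −0.13 against −0.02 for all genes, and 11 of 13 values were below 0 (53.4% of all genes). The lowest were mt-Atp6 (−0.64 ± 0.31, adjusted p 0.305 in edgeR, but −0.13 without gastrocnemius control 1) and mt-Nd5 (−0.34 ± 0.17, adjusted p 0.307). In a test of the difference in effect between 2 tissues, 0 of 13 genes passed in edgeR for any pair, with 0 at an unadjusted p under 0.05 and 0 in DESeq2 in each pair. Of all genes, 0%, 0.0333% and 0.0111% were called in edgeR and 0.683%, 1.57% and 0.25% in DESeq2, for brain against kidney, brain against gastrocnemius and kidney against gastrocnemius.

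Respiratory complexes combine mitochondrial with nuclear subunits, and 4 ratios set the 2 genomes side by side. Per length, mt-Cytb stood at 278 ± 55.8 (SD, n = 6) times Uqcrc1, a core protein of complex III, in brain, at 591 ± 65.0 times in kidney and at 281 ± 44.7 times in gastrocnemius. Kidney was above brain (log2 difference of brain and kidney −1.10, adjusted exact permutation p = 0.012) and above gastrocnemius (1.08, adjusted exact permutation p = 0.012). The ratio of mt-Co1 to Cox5a, a nuclear subunit of the oxidase, was 235, 206 and 156 in brain, kidney and gastrocnemius, and brain was above gastrocnemius by 0.60 (adjusted exact permutation p = 0.012). The ratio of mt-Nd1 to Ndufs1, the iron-sulphur subunit of complex I, was 562, 849 and 658. The ratio of mt-Atp6 to Atp5b, the catalytic subunit of ATP synthase, was 125, 25.6 and 39.2, with the split of mt-Atp6 described above.

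With SeMSNs, 0 of 48 ratio tests passed (12 ratios, each tissue and all 3 together), 6 had an unadjusted exact permutation p under 0.05, and the lowest adjusted p was 0.0960. Within a tissue, 3 against 3 libraries cannot give a p below 0.1. Tests over all tissues exchanged labels within each tissue and so treated libraries of different tissues as independent. The labels do not say whether these share mice, and 3 mice against 3 could not give a p below 0.1 either. The 2 lowest p-values were those of ratios to nuclear subunits over all tissues. In brain, mt-Cytb stood at 339, 329 and 316 times Uqcrc1 in controls and at 233, 212 and 240 times in SeMSNs. In kidney the values were 615, 643 and 666 in controls and 487, 576 and 557 in SeMSNs. In gastrocnemius they were 271, 314 and 324 in controls and 317, 250 and 212 in SeMSNs. Groups were apart in brain and kidney and overlapped in gastrocnemius, and the log2 difference over all tissues was −0.34 (exact permutation p = 0.002, adjusted 0.0960).

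For mt-Co1 and Cox5a the ratios were 257, 325 and 240 in control brain and 170, 213 and 207 in SeMSNs brain. They were 206, 200.1 and 241 in control kidney and 221, 153 and 214 in SeMSNs kidney. They were 213, 142 and 200.2 in control gastrocnemius and 138, 110.4 and 133 in SeMSNs gastrocnemius. Groups were apart in brain and gastrocnemius and overlapped in kidney, with a log2 difference over all tissues of −0.38 (exact permutation p = 0.004, adjusted 0.0960). Of the nuclear partners, Uqcrc1 was at 0.21 over all tissues (adjusted p 0.223 in edgeR) and Cox5a at 0.26 (adjusted p 0.234), and neither passed. The other 4 ratios with an unadjusted p under 0.05 were mt-Atp6 to mt-Co3 (−0.46), mt-Atp6 to Atp5b (−0.53), mt-Co3 to mt-Co1 (0.15) and mt-Co2 to mt-Co1 (0.10), with adjusted exact permutation p between 0.148 and 0.298. Without gastrocnemius control 1 the ratios of mt-Atp6 were at −0.15 to mt-Co3 and −0.24 to Atp5b.

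**Figure D5:**
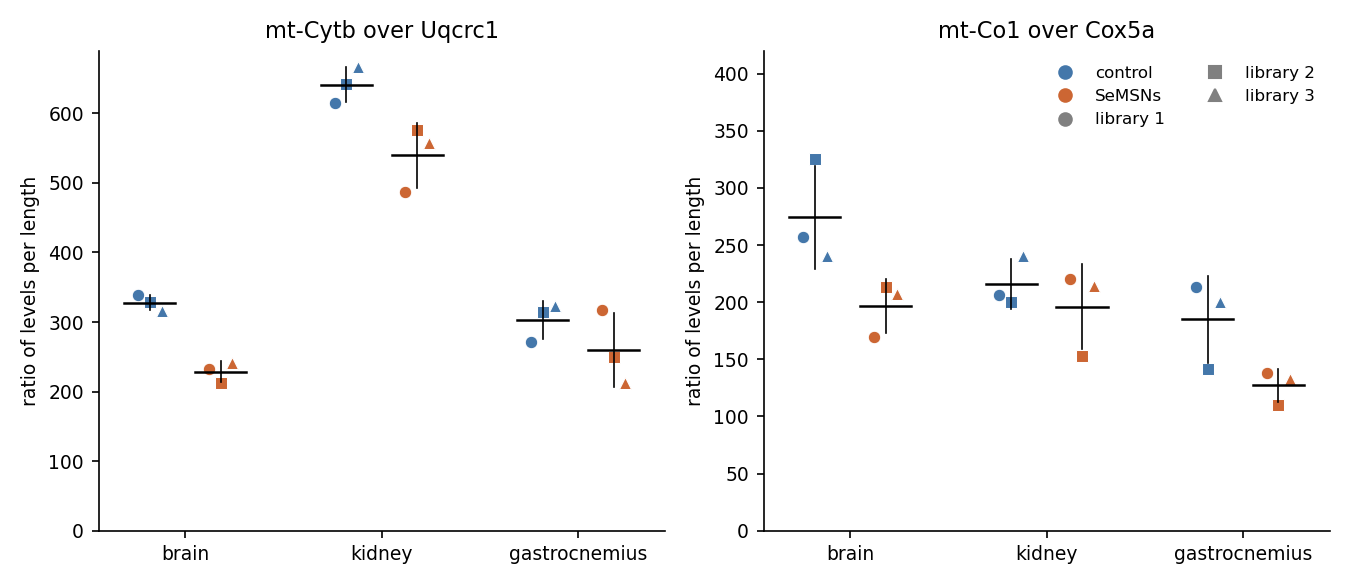
Ratio of a mitochondrial to a nuclear subunit gene of the same complex, per length, for each library by tissue and treatment. Black lines are means and vertical lines SDs of 3 libraries; in brain all 3 SeMSNs libraries lie below all 3 controls for mt-Cytb to Uqcrc1 (212 to 240 against 316 to 339) and for mt-Co1 to Cox5a (170 to 213 against 240 to 325).

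The nuclear genes that keep and express the mitochondrial genome were followed as 5 lists with 78 tested members. For SeMSNs against control, 0 of 78 passed in edgeR in any tissue or over all tissues. An unadjusted p under 0.05 was found for 8 in brain (10.3%, beside 15.4% of all genes), 3 in kidney (3.85%, beside 6.11%), 10 in gastrocnemius (12.8%, beside 13%) and 20 over all tissues (25.6%, beside 17.3%). In the single tissues these shares were no higher than those of all genes. Fitted values were below 0 in 30.8%, 33.3%, 32.1% and 26.9% of the 78, beside 48.8%, 49.6%, 51.1% and 53.4% of all genes. Over all tissues the values with the smallest p included Tufm, the mitochondrial elongation factor Tu (0.29, adjusted p 0.0794 in edgeR), Mgme1, a nuclease of mitochondrial DNA (0.50, adjusted p 0.0907), and Tsfm, the exchange factor of Tufm (0.46, adjusted p 0.126). Tfam, which packages mitochondrial DNA and starts its transcription, was at 0.20 (adjusted p 0.163).

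Between tissues, with TMM scaling, most of these genes were lower in brain. The medians of all genes lay higher with library totals only, as given above, and the lists are not given at that scaling. In brain against kidney, 56 of 78 were lower (71.8%, beside 38% of all genes) and 5 higher in edgeR. Against gastrocnemius 59 were lower (75.6%, beside 34.6% of all genes) and 7 higher. By list, 12 of 12 translation factors were lower in brain than in kidney (median log2 −0.96), as were 16 of 23 transcript processing and stability genes (−0.66), 8 of 11 transcription genes with 1 higher (−0.76), 10 of 15 RNA modification genes with 1 higher (−0.61) and 10 of 17 maintenance genes of mitochondrial DNA with 3 higher (−0.46). Tufm was at −2.05, Lrpprc, which stabilises mitochondrial messengers, at −0.996, Peo1, the helicase Twinkle, at −1.37 and Tfam at −0.76. An exception was Exog, a mitochondrial nuclease, higher in brain by 2.71. The medians against gastrocnemius were −1.23, −1.01, −0.87, −0.62 and −0.55 in the same order of lists, beside 0.25 for all genes. Kidney against gastrocnemius gave 15 higher and 38 lower of 78 (48.7% lower, beside 32.5% of all genes).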

How the data were processed

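Polyadenylated RNA of 18 libraries was counted per gene by the authors. The deposited table held whole-number counts and FPKM values, which the authors normalised by gene length and library total. Reads had been placed on GRCm38, per the submitters' processing notes. The sources used here do not name the aligner, counting tool, annotation or strand setting. Mitochondrial ribosomal and transfer RNAs are not analysed here. In each tissue SeMSNs library 3 of the titles is number 4 in the column names.

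Counts were fitted in R 4.3.3 with edgeR 4.0.16 (filterByExpr, minimum count 10 and minimum total 15; TMM; glmQLFit and glmQLFTest; Benjamini-Hochberg over all tested genes; threshold 0.05), per tissue for SeMSNs and over all 18 libraries for tissues, the average effect and differences of effects. SE is the log2 difference over the square root of F. Ratio tests took log2 counts plus 0.5. Intervals were not used, and precision is limited by 3 libraries per group. The fits were tested on simulated data. Alternatives used limma 3.58.1 on log2(FPKM + 1) and log2(FPKM + 0.1), DESeq2 1.42.0, other scalings, a replicate block and left-out libraries. Python 3.11.15 was used elsewhere. Sequences came from the GENCODE M21 transcripts of GRCm38. All 13 genes are named; of the nuclear lists, genes with the smallest p are named. Members and lists were chosen with earlier results of these data known. As a check for a library deposited more than once, counts of replicates were compared (chi-square per degree of freedom 15.8 to 127 over 18 pairs), and no pair was within sampling noise.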

Additional observations from a re-analysis of the deposited data

How the results depend on the processing

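Called mitochondrial genes in kidney against gastrocnemius, 4 lower, became 4 higher with library totals only, 8 and 7 higher with limma on log2(FPKM + 1) and log2(FPKM + 0.1), 0 with control libraries only, and 0 (without gastrocnemius control 1) to 6 (without brain control 2) when each library was left out. There, mt-Co1 turned to 0.0038 in both limma fits, mt-Nd2 to 0.15 with totals and 0.14 with limma, and mt-Nd1 to 0.069 and 0.082. In brain against gastrocnemius, mt-Atp6 turned to 0.81 with totals and 1.09 with limma, and ranged from −0.57 to 0.41 over left-out libraries; mt-Cytb to Uqcrc1 turned to 0.12 in controls only. Shares without the top 10 nuclear genes were 29.6% and 28.3% (kidney control and SeMSNs) and 28.6% and 28.1% (gastrocnemius).

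Between libraries of equal replicate number, residual correlations were −0.119 to 0.0976 over 9 pairs within tissues. They were −0.035 to 0.0945 over 18 pairs across tissues, and in both sets 0 exceeded 0.1. Low correlations between different tissues cannot decide whether equal numbers mark the same mouse. The main tests over all tissues treat libraries as independent. With the replicate block, kidney against gastrocnemius gave 1 call, or 0 with number and treatment as 1 mouse. With that block, mt-Nd3 was −0.017 in brain and −0.020 in kidney. Of the tissue ratios 0 passed under sign flips, where the smallest possible p, 0.03125, was reached and had an adjusted value of 0.0703. In controls only 0 passed as well, where the smallest exact permutation p is 0.1. With such limits, 0 passing says little about the tissue differences.

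For SeMSNs, brain gave 1 call with DESeq2 and 0 to 2 over left-out libraries. Without both SeMSNs libraries 1 and 2, an alternative chosen after seeing the data, mt-Co1, mt-Co2 and mt-Co3 turned to 0.020, 0.045 and 0.15. In kidney mt-Co2 turned to 0.014 with totals and 0.0078 with limma, and mt-Nd3 to −0.0043 with RLE and DESeq2 and −0.00026 with nuclear totals. Values that crossed 0 over left-out libraries were, in brain, mt-Co3 (−0.25 to 0.010) and mt-Nd3 (−0.17 to 0.15). In kidney they were mt-Nd2 (−0.20 to 0.11), mt-Co2 (−0.14 to 0.078), mt-Co3 (−0.18 to 0.012), mt-Nd3 (−0.18 to 0.14), mt-Nd4l (−0.33 to 0.079), mt-Nd5 (−0.42 to 0.068) and mt-Nd6 (−0.14 to 0.13). In gastrocnemius they were mt-Nd1 (−0.26 to 0.12), mt-Nd2 (−0.16 to 0.13), mt-Co1 (−0.23 to 0.042), mt-Co2 (−0.077 to 0.24), mt-Atp8 (−0.28 to 0.12), mt-Atp6 (−1.92 to 0.050), mt-Nd6 (−0.25 to 0.28) and mt-Cytb (−0.090 to 0.13). Over all tissues they were mt-Co2 (−0.098 to 0.0086), mt-Co3 (−0.028 to 0.073) and mt-Nd3 (−0.00036 to 0.20). Among ratios, 0 to 1 SeMSNs test passed. The 1 was mt-Cytb to Uqcrc1 over all tissues without gastrocnemius SeMSNs 1 (−0.39, adjusted exact permutation p 0.012), with libraries taken as independent. In brain mt-Co2 to mt-Co1 ranged from −0.026 to 0.044 and mt-Co3 to mt-Co1 from −0.017 to 0.12. In kidney mt-Co3 to mt-Co1 ranged from −0.0064 to 0.12 and mt-Co1 to Cox5a from −0.25 to 0.015. In kidney against gastrocnemius, mt-Atp6 to mt-Co3 turned to 0.070 and mt-Atp6 to Atp5b to 0.32 without gastrocnemius control 1. The cause of these changes was not tested. Ratios of ribosomal RNA genes and shares without them were not run. Precision at other depths was not compared.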
